A study of Mus musculus with 16 samples.

Results

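The phagocyte NADPH oxidase is described here through 7 of its genes, *Cybb*, *Cyba*, *Ncf1*, *Ncf4*, *Rac1*, *Rac2* and *Hvcn1*, each found once by its symbol among the 54347 genes of the count table. RNA was sequenced from sorted bone marrow cells of WT mice and of UREΔ mice, in which a distal enhancer of *Spi1*, the upstream regulatory element (URE), is deleted; *Spi1* encodes the transcription factor PU.1. The mice were littermates on a C57BL/6 background, 8 to 12 weeks of age, and the deletion is in the germ line, so that all of their cells carry it. LSKs (negative for lineage markers, positive for Sca-1 and c-Kit) hold the stem cells and multipotent progenitors, and GMPs (negative for lineage markers and Sca-1, positive for c-Kit and CD16/32) are the progenitors of granulocytes and monocytes. Each of the 4 groups, WT LSK, UREΔ LSK, WT GMP and UREΔ GMP, held 4 mice, and the labels name no treatment.

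The oxidase makes superoxide from oxygen with electrons from NADPH and is best known from neutrophils and macrophages, where it helps to kill ingested microbes. Its membrane part is a heterodimer of gp91phox, which carries the electrons and is encoded by *Cybb*, and p22phox, which stabilises it and is encoded by *Cyba*. On activation the cytosolic subunits p47phox (*Ncf1*) and p40phox (*Ncf4*) move to the membrane together with a Rac GTPase, and the proton channel encoded by *Hvcn1* carries out the protons that the electron flow leaves behind. Progenitors are not yet phagocytes, and in this lineage the full complex is known from the mature cells.

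Each library held 20028302 to 29128858 estimated counts. *Spi1* was checked first. Its levels in CPM, counts scaled to a common library size, were 127, 69.5, 134 and 166 in replicates 1 to 4 of the WT LSKs and 2.85, 4.44, 3.67 and 1.13 in those of the UREΔ LSKs. In GMPs they were 139, 84.8, 181 and 153 in WT and 17.4, 28.6, 23.6 and 15.6 in UREΔ, so that every library followed its genotype label. *Mpo*, the myeloperoxidase gene of early granules, lay at 769 to 1241 CPM in WT LSKs and at 43585 to 59246 CPM in WT GMPs, on the side that the cell type labels give.

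Of the 7 oxidase genes, *Ncf4* changed most with genotype and did so in the LSKs, where it fell by 3.41 on the log2 scale in UREΔ. *Hvcn1* had higher means in UREΔ than in WT in both cell types. *Cybb*, *Cyba*, *Ncf1* and *Rac1* were not called between the genotypes in either cell type. Counts of called genes rest on edgeR, with p-values adjusted over all genes tested by the method of Benjamini and Hochberg, and a call needed a fold above 1.5 besides an adjusted p under 0.05. In LSKs 0 members were called higher and 1 lower in UREΔ, against 2.38% higher and 3.76% lower among all 15154 genes tested. With the replicate number as a block these became 1 higher and 2 lower, against 3.83% and 5.62% of all genes. In GMPs 0 of the 7 were called in either direction by edgeR, against 4.67% higher and 3.63% lower among 13829 genes, while 2 had an unadjusted p under 0.05, *Hvcn1* higher and *Ncf4* lower, and DESeq2 called 1, *Hvcn1*. With the block 1 member was called higher in UREΔ GMPs, against 9.52% of all genes. Without replicate 2 of the UREΔ GMPs, which stands apart from the other 3 in *Cybb* and in several marker lists given below, 1 member was called in GMPs and 2 in place of 3 from LSK to GMP in UREΔ. All 7 passed the filter on low counts in every comparison, so that none is left out of these counts.

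From LSK to GMP, 3 members rose in WT and 3 rose in UREΔ, and 0 fell in either. Among all genes 11.5% rose and 15.8% fell in WT, and 9.20% rose and 12.6% fell in UREΔ. With the block 5 members rose in WT and 6 in UREΔ, against 15.8% and 13.3% of all genes. The median log2 fold change from LSK to GMP was 0.80 over the 7 members and -0.09 over all genes in WT, and 0.92 over the members and -0.09 over all genes in UREΔ. The comparisons of genotypes and those of cell types share libraries. Those of cell types depend on the scaling. Without TMM factors the medians of all genes were -0.42 in WT and -0.40 in UREΔ, and the share of calls that were higher in GMPs was 17.3% in place of 42.2% in WT and 22.1% in place of 42.3% in UREΔ. Of the members 2 then rose in each genotype, since the calls of *Ncf4* in WT and of *Cyba* in UREΔ (0.62, adjusted p = 0.111) were lost. The genotype effect differed between the cell types for 1 member, *Ncf4*, in the test of the interaction, in which 0.866% of 15935 genes were called with a higher and 0.351% with a lower effect in GMPs. With the block it differed for 3 members, 2 higher and 1 lower, against 3.97% and 2.60% of all genes. Since the libraries hold RNA of whole sorted populations, fewer cells that express a gene and less RNA of it per cell cannot be told apart.

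**Figure D1:**
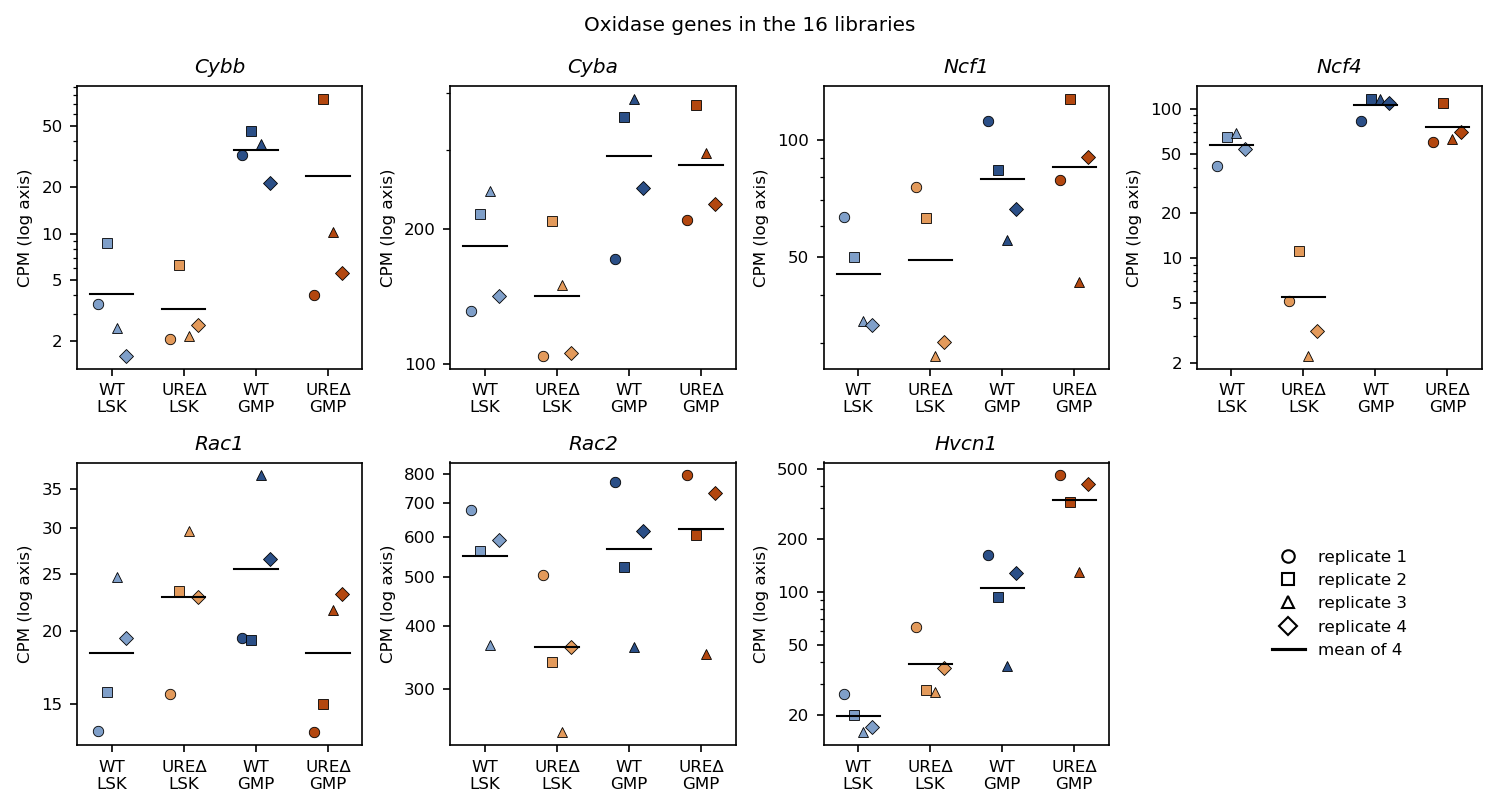
CPM of each of the 7 oxidase genes (log axes) in the 4 libraries of each group, with a symbol for each replicate number and a line at the group mean. The 4 UREΔ LSK libraries lie below all others for Ncf4, the 4 UREΔ LSK libraries lie above the 4 WT LSK libraries for Hvcn1, and replicate 2 stands above the other 3 UREΔ GMP libraries for Cybb.

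*Cybb* (ENSMUSG00000015340, chrX:9435252-9487771, minus strand, GRCm38, 15 merged exons) rose steeply from LSKs to GMPs in WT and was the lowest of the 7 per length in both LSK groups. WT LSKs held 3.49, 8.73, 2.42 and 1.61 CPM of it in replicates 1 to 4, which rested on 40 to 260 counts. UREΔ LSKs held 2.07, 6.23, 2.15 and 2.55 CPM, which rested on 51 to 188 counts. The groups overlapped, and with an adjusted p of 0.922 the difference of -0.34 (log2, SE 0.58) was within their spread. In WT GMPs *Cybb* stood at 32.7, 46.7, 38.3 and 21.5 CPM, above every LSK library, a rise of 3.08 on the log2 scale (SE 0.53, adjusted p = 0.00269, edgeR). In UREΔ GMPs it stood at 4.003, 75.3, 10.2 and 5.57 CPM, that is, 3 libraries below all 4 WT GMP libraries and replicate 2 above them.

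The *Cybb* comparisons turned on that library. With all 4 mice the genotype difference of *Cybb* in GMPs was -0.60 (log2, SE 0.83, adjusted p = 0.781), and with the replicate block -1.57 (SE 0.54, adjusted p = 0.0821), not called in either fit. Without replicate 2 of the UREΔ GMPs it was -2.41, with an adjusted p of 0.0119, and *Cybb* was then called lower in UREΔ. The rise from LSK to GMP in UREΔ was 2.81 (SE 0.93, adjusted p = 0.0580) with the library and 1.01 (adjusted p = 0.237) without it. With the replicate block and all mice, the rise was 1.97 and was called (adjusted p = 0.0100). Replicate 2 had the highest *Cybb* level in all 4 groups.

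Markers of monocytes and macrophages moved with *Cybb* in that library. The summed level of 10 such markers was 443, 1908, 417 and 815 CPM in replicates 1 to 4 of the UREΔ GMPs, and 1707 to 2268 CPM in WT GMPs. Of the 10 markers, 7 were highest in replicate 2 among the UREΔ GMP libraries, and none of the 10 was at 0 there. *Irf8*, which encodes a transcription factor of the monocyte lineage, was at 23.2, 129, 16.04 and 27.1 CPM, and *F13a1*, which encodes a coagulation factor subunit made by monocytes, was at 26.5, 453, 28.4 and 47.5 CPM. In the UREΔ GMPs most of the sum was *Ly6c2*, a surface antigen gene of monocytes and early myeloid cells, which took 1194 of the 1908 CPM in replicate 2. *Ly6c2* was at 349.6, 1194, 311 and 670.4 CPM in the UREΔ GMPs and at 245, 460.0, 385 and 135 CPM in the WT GMPs. The other 9 markers were each lower in replicate 2 than in all 4 WT GMP libraries, and their sum was 93.1, 715, 106 and 145 CPM in the UREΔ GMPs against 1322 to 2023 CPM in WT GMPs. This sum without *Ly6c2* was added after seeing the data. Replicate 2 was thus above the other UREΔ GMPs and below the WT GMPs in the sum of these 9 markers, and its *Spi1* level, 28.6 CPM, lay with the other UREΔ GMPs. Other lists stood apart in it too. Early neutrophil granule genes summed to 102180.0, 159249, 73077 and 108581 CPM in replicates 1 to 4, erythroid markers to 349, 52.4, 463 and 219.9 CPM, megakaryocyte markers to 304, 95.8, 352 and 211 CPM, and those of mast cells and basophils to 1672, 863, 2378 and 1482 CPM. Replicate 2 was the highest of the 4 in the first of these lists and the lowest in the other 3. On average most of the first sum was *Mpo*. In the LSKs the sum of all monocyte and macrophage markers was 71.9 to 134 CPM in WT and 23.7 to 43.4 CPM in UREΔ. Of these markers, 4 of 9 tested were called lower in UREΔ LSKs and 6 of 10 in UREΔ GMPs, and 0 higher. With the block these were 5 and 8, against 5.62% and 6.82% of all genes called lower. The part of any of these cells in the *Cybb* level was not tested.

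**Figure D2:**
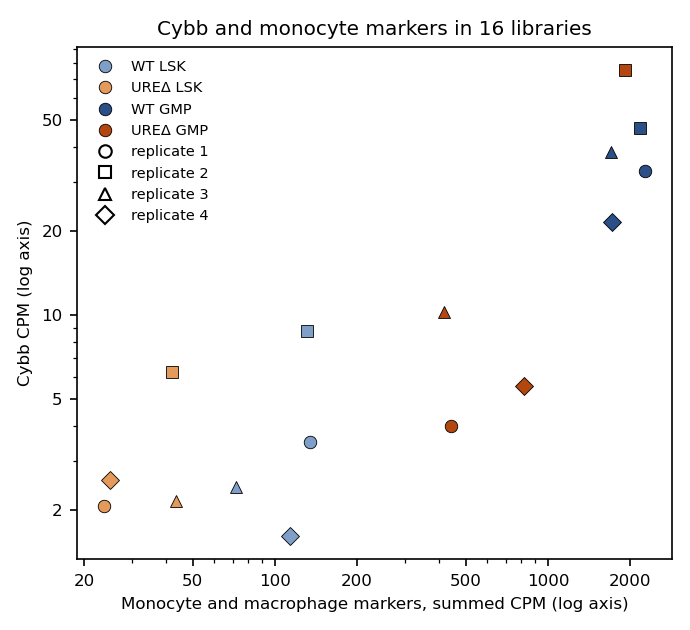
Cybb (CPM, log axis) against the summed CPM of 10 monocyte and macrophage markers (log axis), with 1 point per library, colours for the 4 groups and symbols for the replicate numbers. Replicate 2 of the UREΔ GMPs, at 75.3 CPM of Cybb and a marker sum of 1908, lies beside the 4 WT GMP libraries. The other 3 UREΔ GMP libraries lie between them and the LSKs in the marker sum, while 2 of these 3, at 4.003 and 5.57 CPM of Cybb, are within the range of the LSKs on that axis. Of that sum 1194 CPM are Ly6c2, and the other 9 markers are each below every WT GMP library.

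*Cyba* (ENSMUSG00000006519, chr8:122424776-122432930, minus strand, 7 merged exons), the partner of *Cybb* in the membrane, was among the most abundant members and was not called between the genotypes. WT LSKs had 131, 216, 242 and 142 CPM and UREΔ LSKs 105, 208, 150.3 and 106 CPM in replicates 1 to 4. Each UREΔ LSK library was below the WT library of its number, but the groups overlapped (log2 fold change -0.40, SE 0.29, adjusted p = 0.664). In GMPs the levels were 172, 355, 389 and 246 CPM in WT and 209, 378, 294 and 227 CPM in UREΔ, again overlapping, with a difference of -0.08 (SE 0.29, adjusted p = 0.920). GMPs were above LSKs in each of the 4 pairs of both genotypes. The rise was 0.66 in WT and was not called (adjusted p = 0.137). It was called with the block (adjusted p = 0.000741) and in 1 of 8 fits that left out 1 library (lowest adjusted p = 0.0414). In UREΔ it was 0.92 and called (SE 0.27, adjusted p = 0.0351), a call that was lost in 6 of 8 fits that left out 1 library, with adjusted p-values up to 0.0994.

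Both subunits must pair in the membrane, and the ratio of their counts changed more between the cell types than between the genotypes in LSKs. On the log2 scale, *Cyba* exceeded *Cybb* by 4.63 to 6.64 in WT LSKs and by 5.06 to 6.13 in UREΔ LSKs. In WT GMPs the ratio had narrowed to 2.39 to 3.52. In UREΔ GMPs it ran from 2.33, in replicate 2, to 5.71, so that the range reached from the level of WT GMPs to that of LSKs. Counts per gene also scale with the length of the transcripts, so that only the change of this ratio between groups can be read.

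RefSeq promoter windows (GRCm38.p6) were at hand for 3 of the 7 members, *Cybb*, *Cyba* and *Ncf1*. The 250 bases before the start of the membrane pair are given because *Cybb* rose with GMP stage and fell short of the WT level in 3 of 4 UREΔ GMP libraries, while the *Cyba* levels of both genotypes overlapped. They lie at chrX:9469325-9469574 and chr8:122432941-122433190 and are read on the minus strand, 5′ to 3′. The RefSeq start of *Cybb* lies inside the longer gene span given above. Capitals mark the letters of a RUNX core (TGTGGT or ACCACA) or of a C/EBP motif (ATTGC or GCAAT).
Cybb: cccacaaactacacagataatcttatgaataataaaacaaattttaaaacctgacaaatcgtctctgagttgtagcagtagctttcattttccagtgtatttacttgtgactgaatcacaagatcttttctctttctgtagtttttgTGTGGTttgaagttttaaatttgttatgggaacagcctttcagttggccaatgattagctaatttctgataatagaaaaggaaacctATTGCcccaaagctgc
Cyba: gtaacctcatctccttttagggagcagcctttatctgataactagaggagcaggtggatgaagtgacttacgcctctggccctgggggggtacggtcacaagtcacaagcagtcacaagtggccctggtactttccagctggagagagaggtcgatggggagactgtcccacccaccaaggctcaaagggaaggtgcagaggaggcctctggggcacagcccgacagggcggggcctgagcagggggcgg
The *Cybb* window held TGTGGT 103 bases and ATTGC 16 bases before the start. A PU.1 core, GAGGAA or TTCCTC, stood as TTCCTC from base 10 of *Cybb*, with the start counted as base 1, in the following 20 bases at chrX:9469303-9469322 on the minus strand, with the match in capitals.
Cybb, after the start: ttttcatTTCCTCatcagaa
The windows of *Cyba* and *Ncf1* held none of these letters. Both strands were searched from 250 bases before to 50 after the start, and among 32841 such windows 28.3% held the PU.1 core, 16.8% the RUNX core and 26.4% the C/EBP motif, so that each is common. A match is a string of letters and not a bound site.

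*Ncf1* (ENSMUSG00000015950, chr5:134220053-134229625, minus strand, 11 merged exons) encodes p47phox, the organiser that brings the cytosolic subunits to the membrane once it is phosphorylated. Its LSK levels were 63.2, 50.01, 34.2 and 33.4 CPM in WT and 75.8, 62.9, 27.9 and 30.3 CPM in UREΔ. The groups overlapped fully, with a log2 difference of 0.09 (SE 0.36, adjusted p = 0.972). GMPs had 112, 83.6, 55.2 and 66.5 CPM in WT and 78.7, 127, 43.1 and 90.3 CPM in UREΔ, a difference of 0.08 (SE 0.32, adjusted p = 0.932). In both cell types 2 of the 4 pairs were higher and 2 lower in UREΔ. Each GMP library was above the LSK library of its number and genotype. The rise was 0.80 in WT (adjusted p = 0.0651) and 0.74 in UREΔ (adjusted p = 0.221). Neither was called in these fits, and both were called with the replicate block (adjusted p = 0.000212 and 0.0285). The WT rise was also called in 2 of 8 fits that left out 1 library (lowest adjusted p = 0.0388). Of the exon bases of *Ncf1*, 11.1% lie opposite exons of *Gtf2ird2*, whose reads an unstranded library cannot separate there, and the summed counts of both genes rose by 0.50 in WT and 0.45 in UREΔ, neither of them called.

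*Ncf4* (ENSMUSG00000071715, chr15:78244801-78262580, plus strand, 11 merged exons) encodes p40phox, which binds the lipid phosphatidylinositol 3-phosphate on phagosomes and keeps the oxidase active there. WT LSKs held 41.3, 64.4, 68.7 and 53.4 CPM in replicates 1 to 4, and UREΔ LSKs held 5.19, 11.2, 2.23 and 3.26 CPM, on 53 to 339 counts. The highest UREΔ LSK library was thus far below the lowest WT LSK library. The means were 57.0 ± 12.3 and 5.48 ± 4.03 CPM (SD, n = 4 each), so that the log2 difference was -3.41 (SE 0.49) or 10.6-fold, with an adjusted p of 0.00336 by edgeR. An exact two-sided permutation test of log2 CPM gave p = 0.0286, the smallest that 4 against 4 can give. The call held without any single library, with log2 values from -4.02 to -3.14.

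In GMPs the difference was smaller. *Ncf4* was at 82.6, 116, 115 and 108 CPM in WT and at 59.5, 109, 62.8 and 69.8 CPM in UREΔ, and replicate 2 of the UREΔ GMPs lay among the WT libraries. The log2 fold change was -0.50 (SE 0.22, adjusted p = 0.226). With the block it was -0.53 with an adjusted p of 0.0494, under the fold threshold of 1.5 and so not called. UREΔ was lower in 4 of 4 pairs. Without replicate 2 of the UREΔ GMPs the difference was -0.74 (adjusted p = 0.0594). The test of the difference between both genotype effects, with all libraries, gave 2.88 (log2, SE 0.54, adjusted p = 0.0162, edgeR over 16 libraries), and 2.65 (adjusted p = 0.0336) without that library. From LSK to GMP, *Ncf4* rose by 0.88 (SE 0.20, adjusted p = 0.0114) in WT and by 3.74 (SE 0.49, adjusted p = 0.000937) in UREΔ. The WT call was lost without TMM factors, at 0.54 (adjusted p = 0.0707), and in a single fit over all 16 libraries, at 0.89 (adjusted p = 0.0889). *Spi1* had an interaction of the same sign, 2.64 (SE 0.52, adjusted p = 0.0218). Its genotype differences were -5.39 in LSKs and -2.73 in GMPs, and both were called. From LSK to GMP in WT, *Spi1* changed by 0.16 (adjusted p = 0.747) and was not called. The sum of the monocyte and macrophage markers given above was lower in UREΔ LSKs too. Of these markers 4 of 9 tested were called lower there, and 5 with the block, while *Ly6c2* went the other way (0.84, adjusted p = 0.447). The part of these markers' cells in the *Ncf4* level was not tested.

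The cytosolic members *Ncf4* and *Ncf1* thus parted in UREΔ LSKs. The log2 ratio of their counts lay between -0.61 and 1.01 in WT LSKs and between -3.87 and -2.49 in UREΔ LSKs, with no overlap. It was between -0.43 and 1.06 in WT GMPs and between -0.40 and 0.54 in UREΔ GMPs, so that the GMPs of both genotypes and the WT LSKs shared a range. Among the genes whose levels over the 16 libraries were most like those of *Ncf4* was *Ccl9*, a chemokine gene, with a root mean square difference of centred log2 CPM of 0.55 among 9075 genes compared.

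**Figure D3:**
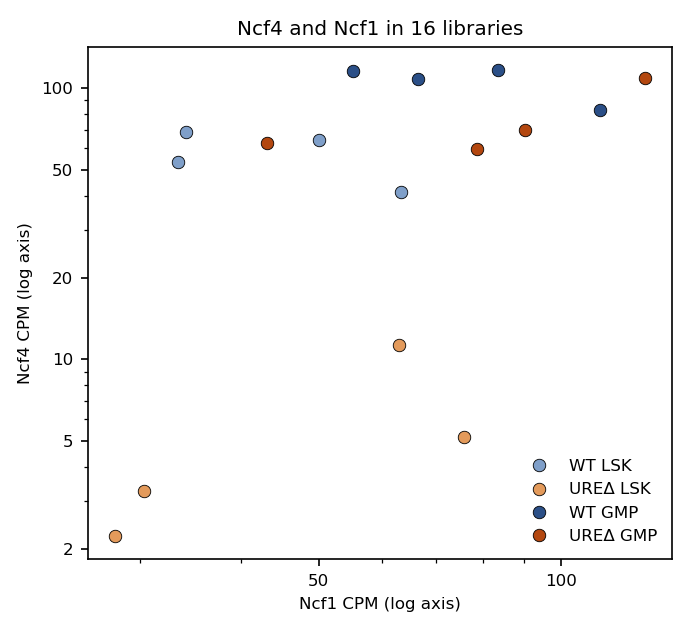
Ncf4 against Ncf1 (CPM, both axes log), 1 point per library, coloured by group. The 4 UREΔ LSK libraries, at 2.23 to 11.2 CPM of Ncf4, lie below the other 12, while their 27.9 to 75.8 CPM of Ncf1 overlap those of the WT LSKs.

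*Rac2* (ENSMUSG00000033220, chr15:78559167-78572783, minus strand, 7 merged exons) encodes the Rac GTPase of blood cells, which serves the oxidase of neutrophils. It lies 296586 bases from *Ncf4*. WT LSKs had 679, 562, 367 and 594 CPM and UREΔ LSKs 505, 339.7, 247 and 364 CPM. The groups overlapped through replicate 3, the lowest of each group, while UREΔ was lower in 4 of 4 pairs. The log2 fold change was -0.63 (SE 0.25, adjusted p = 0.248), and it was called with the block (-0.64, SE 0.12, adjusted p = 0.0128). GMPs held 771, 524, 364 and 616 CPM in WT and 796, 606, 352 and 735 CPM in UREΔ, with a difference of 0.12 (SE 0.29, adjusted p = 0.880). With the block the genotype effects differed by 0.73 between the cell types (adjusted p = 0.00694), against an adjusted p of 0.549 without it. From LSK to GMP the change was 0.04 in WT (adjusted p = 0.939), which turned to -0.29 without TMM factors, and 0.73 in UREΔ (adjusted p = 0.102), called with the block (adjusted p = 0.00348).

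*Rac1* (ENSMUSG00000001847, chr5:143503634-143528036, minus strand, 9 merged exons) encodes the widely expressed Rac, which serves the oxidase of macrophages. Its counts are uncertain, because 51.4% of its exon bases (2309) lie opposite exons of *Daglb*, a diacylglycerol lipase gene, and the libraries carry no strand. LSKs had 13.5, 15.7, 24.7 and 19.4 CPM in WT and 15.6, 23.4, 29.6 and 22.9 CPM in UREΔ, higher in UREΔ in 4 of 4 pairs (log2 fold change 0.29, SE 0.28, adjusted p = 0.795). GMPs had 19.4, 19.3, 36.9 and 26.6 CPM in WT and 13.4, 14.99, 21.7 and 23.1 CPM in UREΔ, lower in UREΔ in 4 of 4 pairs (-0.49, SE 0.30, adjusted p = 0.417). The interaction was -0.80 (SE 0.40, adjusted p = 0.467) and was called with the block (adjusted p = 0.0293). *Daglb* itself averaged 88.2 CPM in WT GMPs and 56.0 CPM in UREΔ GMPs, against 44.4 and 42.6 CPM in the LSKs. When both genes were summed, the rise from LSK to GMP in WT went from 0.47 (adjusted p = 0.260) to 0.85 (adjusted p = 0.00564), and the change in UREΔ went from -0.36 to 0.14. Counts of *Rac2* exceeded those of *Rac1* in every library, by 3.06 to 5.89 on the log2 scale.

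*Hvcn1* (ENSMUSG00000064267, chr5:122206804-122242297, plus strand, 8 merged exons), the gene of the voltage-gated proton channel, was the member whose group means were higher in UREΔ in both cell types by the widest margins. LSKs had 26.3, 20.004, 16.01 and 17.2 CPM in WT and 63.5, 27.9, 27.0 and 36.8 CPM in UREΔ in replicates 1 to 4. The lowest UREΔ library was just above the highest WT library. The log2 fold change of 0.93 (SE 0.31) had an adjusted p of 0.142 over all genes, and the block gave 0.87 (SE 0.18, adjusted p = 0.0195), which was called. The exact two-sided permutation test for this gene alone gave p = 0.0286, the smallest possible. GMPs had 162, 94.3, 38.1 and 128 CPM in WT and 460.4, 324, 129.9 and 413 CPM in UREΔ. Replicate 3 was the lowest in both groups, and its UREΔ library, at 129.9 CPM, overlapped the WT range.

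The difference varied less between the pairs of GMPs than between those of LSKs. In GMPs the UREΔ library exceeded the WT library of its number by 1.51 to 1.78 on the log2 scale in all 4 pairs, and in LSKs by 0.48 to 1.27. In GMPs the fit without the block gave 1.65 (SE 0.47, adjusted p = 0.0679), or 3.13-fold, and was not called. The block gave 1.68 with an SE of 0.12 and an adjusted p of 0.000187. DESeq2 (adjusted p = 0.0104), a fit without a filter on low counts (0.0397) and a fit over all 16 libraries (0.0220) also called it. *Hvcn1* rose from LSK to GMP by 2.40 in WT (SE 0.41, adjusted p = 0.00252) and by 3.05 in UREΔ (SE 0.43, adjusted p = 0.00135). The genotype effects in both cell types were not told apart, at a difference of 0.69 (SE 0.60, adjusted p = 0.792). Of its exon bases, 44.2% lie opposite *Tctn1*, whose group means were 8.81 and 10.1 CPM in WT and UREΔ LSKs and 10.6 and 11.9 CPM in WT and UREΔ GMPs, and the genotype difference of the summed counts was 0.73 in LSKs and 1.56 in GMPs. The sum of late neutrophil markers also stood higher in UREΔ GMPs, at 70.4 to 174 CPM in WT and 255 to 1032 CPM in UREΔ, with no overlap. In the LSKs it was 38.5 to 183 CPM in WT and 179 to 364 CPM in UREΔ, and these ranges overlapped. Of this list, 1 of 8 tested was called higher and 0 lower in LSKs, and 3 of 9 higher and 1 lower in GMPs. With the block 4 were called higher and 0 lower in LSKs, and 6 higher and 1 lower, *Mmp8* (-3.28), in GMPs. Among all genes 3.83% were called higher and 5.62% lower in LSKs with the block, and 9.52% and 6.82% in GMPs. The genes of early neutrophil granules summed to 55339 to 70801 CPM in WT and 73077 to 159249 CPM in UREΔ GMPs, with no overlap, and to 973 to 1598 and 686 to 1484 CPM in the LSKs, which overlapped. On average most of the GMP sums was *Mpo* (log2 fold change 0.85, adjusted p = 0.118, edgeR). *Elane* (1.02) and *Ctsg* (1.24) were also higher in UREΔ GMPs without a call. *Prtn3* was at 0.12, and *Ms4a3* was called lower (-1.83, adjusted p = 0.0481). Of these 5 genes, 1 was called higher and 1 lower in LSKs and 0 higher and 1 lower in GMPs, and with the block 2 and 2 in LSKs and 3 and 1 in GMPs. Their part in the *Hvcn1* level was not tested.

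**Figure D4:**
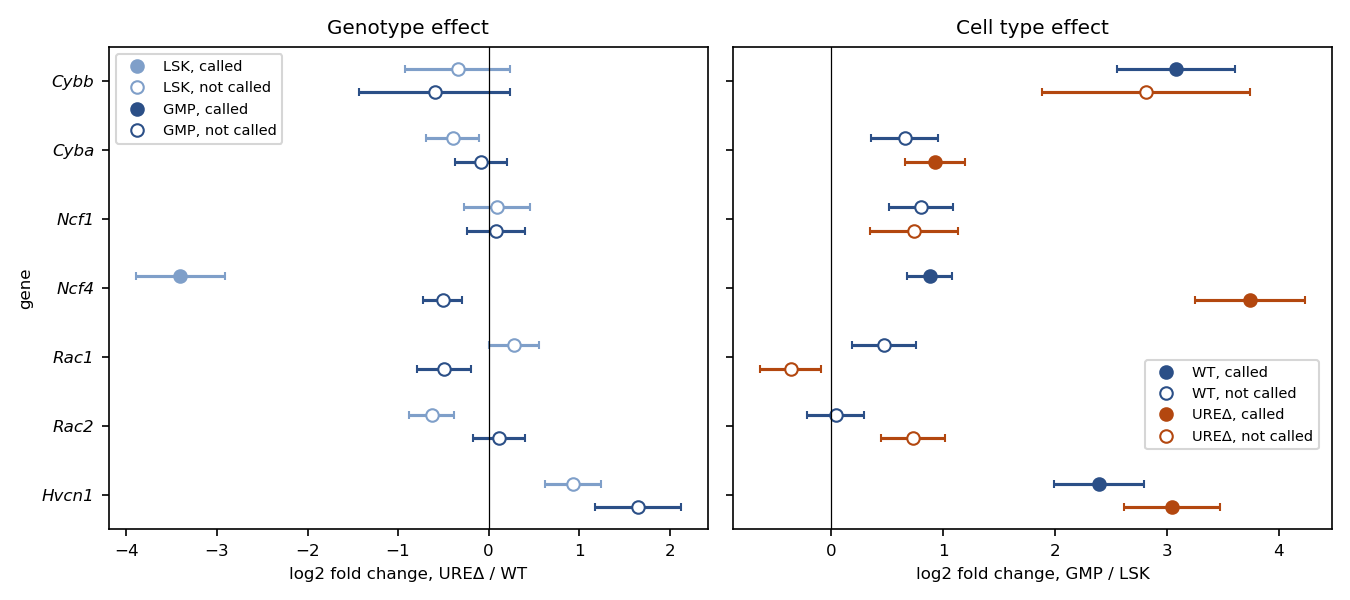
Log2 fold changes (points) with their SE (bars) for the 7 members, from edgeR without the replicate block: UREΔ over WT in LSKs and GMPs on the left, GMP over LSK in WT and UREΔ on the right, filled where called. On the left only Ncf4 in LSKs, at -3.41, is filled. On the right Ncf4 and Hvcn1 are filled in both genotypes, Cybb in WT and Cyba in UREΔ.

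Levels can be compared between genes once they are divided by the length of their merged exons. In CPM per kilobase, WT LSKs ranked *Rac2* (177) and *Cyba* (176) first, followed by *Ncf4* (28.2), *Ncf1* (12.3), *Hvcn1* (5.58), *Rac1* (4.08) and *Cybb* (0.700). The first pair was closer than its spread. In UREΔ LSKs *Ncf4* (2.71) was next to last, above *Cybb* (0.559), while *Cyba* (137) and *Rac2* (117) stayed on top. WT GMPs ranked *Cyba* (279), *Rac2* (183), *Ncf4* (52.3), *Hvcn1* (29.6), *Ncf1* (21.6), *Cybb* (5.99) and *Rac1* (5.68). In UREΔ GMPs *Hvcn1* (93.2) was above *Ncf4* (37.2) and *Ncf1* (23.2), and *Cybb* (4.09) and *Rac1* (4.07) were last and within their spread. The *Cybb* mean there rests on replicate 2, at 12.96 CPM per kilobase, without which it was 1.14 ± 0.555 (SD, n = 3), below every library of *Rac1*. The gene that carries the electrons was thus far below its partner *Cyba* in each group, and *Rac1* is read with the limit on its counts given above.

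The other members had nearest genes of mixed kinds by the same measure over the 16 libraries. *Cyba* was closest to *Timm8b* (0.17), *Rac2* to 0610030E20Rik (0.17), *Rac1* to *Uri1* (0.22), *Ncf1* to *Ptbp3* (0.30), *Hvcn1* to *Afap1* (0.38) and *Cybb* to *Gatm* (0.93).

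Among 15 further genes of oxidase assembly and activation, 0 rose and 1 fell in UREΔ LSKs, with a median log2 fold change of 0.03 against 0.00 over all genes. It was *Pak1*, the gene of a kinase that Rac activates (-1.10, adjusted p = 0.0219). With the block 3 fell in LSKs, among them *Prkcd* (-0.65, adjusted p = 0.0295), a further protein kinase C gene, and *Pik3cg* (-0.93, adjusted p = 0.00271), the gene of a phosphoinositide 3-kinase. In GMPs 0 rose and 1 fell, again *Pak1* (-1.80, adjusted p = 0.000612), with a median of -0.08, and with the block *Prkcb* rose as well (0.96, adjusted p = 0.0425). In GMPs relative to LSKs, *Prkcb*, the gene of a protein kinase C that phosphorylates p47phox (1.02, adjusted p = 0.0477), rose in WT and 0 of the 15 fell. In UREΔ 2 rose, *Prkcb* (2.57) and *Cybc1*, which encodes a chaperone of gp91phox (0.63, adjusted p = 0.0138), and *Dock2* and *Pak1* fell. With the block 2 rose and 1 fell in WT, where *Tiam1* (0.91) and *Dock2* (-0.73) joined *Prkcb*, and 3 rose and 3 fell in UREΔ, against 25.1% and 18.6% of all genes that fell in WT and UREΔ. The interaction called 0 of the 15 without the block (2 at an unadjusted p under 0.05) and 2 with it, *Prkcb* higher (1.63, adjusted p = 0.0296) and *Pak1* lower (-0.72, adjusted p = 0.0145).

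Of 9 genes of other NADPH oxidases and their partners, 4 passed the filter on low counts in LSKs and 1 was called higher in UREΔ, *Nox4*, whose product makes hydrogen peroxide without cytosolic subunits. It lay at 0.156 to 0.927 CPM in WT LSKs and at 4.14 to 10.8 CPM in UREΔ LSKs (log2 fold change 3.98, SE 0.55, adjusted p = 0.00276). In GMPs it was lower, at 0 to 0.0831 CPM in WT and 0.470 to 2.99 CPM in UREΔ. These ranges did not overlap, but *Nox4* did not pass the filter on low counts in that comparison and was not tested. Of the 9 genes 1 could be tested there, *Nox1*, and it was not called (0.18, adjusted p = 0.882). Between LSKs and GMPs, *Noxa1*, the gene of an activator of NOX1, fell in WT (-3.22, adjusted p = 0.00192) and in UREΔ (-1.65, adjusted p = 0.0285), 1 of 2 and, with *Nox4* (-2.15, adjusted p = 0.0216), 2 of 3 genes tested.

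NADPH, the electron donor, comes largely from the pentose phosphate pathway and from isocitrate dehydrogenase. Of 6 genes for its supply, *Idh1* fell in UREΔ LSKs (-0.68, adjusted p = 0.0289), and 0 of the 5 tested in GMPs were called. From LSK to GMP, 4 of 5 rose in WT and 5 of 6 in UREΔ, against 11.5% and 9.20% of all genes, with medians of 0.91 and 1.29. With the block 5 of 5 rose in WT, against 15.8% of all genes, *Tkt*, the transketolase gene, included (0.65, adjusted p = 0.000831). Among them were *G6pdx*, the first enzyme of the pathway (0.91 and 1.23), and *Idh1* (2.31 and 2.58), while *Me1*, at 0.0513 to 0.169 CPM in UREΔ GMPs, fell in UREΔ (-3.78). Of 17 genes for the use and removal of superoxide and peroxide, 15 were tested in LSKs and 2 fell in UREΔ, *Gpx1*, a glutathione peroxidase (-2.02, adjusted p = 0.00518), and *Cat*, the catalase (-0.70, adjusted p = 0.0300). In GMPs *Prdx5*, a peroxiredoxin (0.92, adjusted p = 0.0294), rose and *Epx*, the peroxidase of eosinophils (-2.89, adjusted p = 0.0170), fell among 16 tested. With the block 3 rose and 4 fell in GMPs, with *Mpo* (0.81, adjusted p = 0.0324) and *Gsr*, the glutathione reductase gene (0.93, adjusted p = 0.0227), added to those that rose, and *Sod1* (-0.68), *Gpx1* (-0.64) and *Prdx4* (-1.74, adjusted p = 0.00711) to those that fell. *Mpo*, which turns the hydrogen peroxide into hypochlorous acid, averaged 50523 ± 6536 CPM in WT and 91802 ± 28131 CPM in UREΔ GMPs (SD, n = 4). Between LSK and GMP 5 of the 16 tested in this list rose and 1 fell in each genotype. Among all genes 11.5% rose and 15.8% fell in WT, and 9.20% rose and 12.6% fell in UREΔ. With the block 7 of the list rose and 1 fell in WT and 6 rose and 2 fell in UREΔ, against 15.8% and 13.3% of all genes that rose. The interaction called 0 of the list in edgeR without the block (5 at an unadjusted p under 0.05) and 5 with it, *Mpo*, *Gpx1* and *Prdx5* higher and *Prdx1* and *Prdx4* lower in GMPs.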

How the data were processed

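Libraries were unstranded, with an input of at most 10 ng RNA and no molecular identifiers. The authors quantified reads with salmon and summed transcripts to genes with tximport; the deposited values are estimated counts per gene as whole numbers, not normalized, against GRCm38 (annotation release not given in the sources used here). Coordinates are from GENCODE M21 of GRCm38, which holds 54094 of the 54347 identifiers. Depth limits low genes, and statements on it cover counting error only. Groups and replicate numbers came from the labels.

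Each comparison was fitted on its own 8 libraries, and the interaction on 16, with edgeR 4.0.16 (R 4.3.3, limma 3.58.1): filterByExpr, TMM factors, quasi-likelihood test, Benjamini-Hochberg adjustment over all genes tested, and a call at a fold above 1.5 and an adjusted p under 0.05 (interaction: adjusted p alone). This tool replaced the DESeq2 of the study, which was run as an alternative (1.42.0). SEs come from the log2 fold change and the F statistic. CPM use TMM factors over 16 libraries. For exact permutation tests a prior count of 2 was added before taking log2 CPM. Scripts were tested on simulated data.

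Same-numbered libraries deviated together in each of the 4 comparisons of groups checked (r = 0.36 to 0.90 across genes), and the numbers were taken to pair the samples. Numbers 1 and 4, and 2 and 3, also moved as 2 sets (r = 0.19 to 0.62 between different numbers of a set, -0.77 to -0.29 between sets), and some of these values exceeded those of the same number; the pairing was read from the data, as the labels do not say what a number marks. Blocked values are given for members where they change a call, and as counts where they change those of a list of related genes, or of a marker list between the genotypes.

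Named genes are the 7 members, *Spi1*, overlapping genes, the nearest genes by root mean square difference of centred log2 CPM (mean log2 CPM of at least 3) and called genes of lists of related genes. Marker lists of 11 cell types were summed. Members and lists were chosen with earlier results of these data known. Alternatives comprised RLE size factors, no TMM, other filters, 1 joint fit, the block, leaving out each library and, chosen after seeing the data, replicates 1 and 4 or 2 and 3 alone counts summed with an overlapping gene and the monocyte sum without *Ly6c2*. No protein sequence was used here, and some related genes are not reported here.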

Additional observations from a re-analysis of the deposited data

Results flagged for a closer look

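In 32 sets of 4 libraries (the 7 members and *Spi1* in 4 groups), the gap between the highest or lowest library and its neighbour was compared with the range of the set, and chance alone marks about 1 set in 20. Of the 32 sets 2 were marked on CPM, both of *Cybb* in UREΔ, and 0 on log2 CPM, a scale added after seeing the data, where their gaps were 0.812 of the range in LSKs and 0.683 in GMPs. In UREΔ LSKs replicate 2 was at 6.23 CPM, against 2.07, 2.15 and 2.55 CPM in the others, a gap of 0.884 of the range. In UREΔ GMPs replicate 2 was at 75.3 CPM, against 4.003, 10.2 and 5.57 CPM, a gap of 0.913 of the range.

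The effect of genotype differed between LSKs and GMPs for *Ncf4*, by 2.88 on the log2 scale, and for *Spi1*, by 2.64, in edgeR's test of the interaction. Both were lower in UREΔ by more in the LSKs, and for both each UREΔ library was below the WT library of its number in both cell types.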

How the results depend on the processing

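With the replicate block, 3 members were called in place of 1 in LSKs, 1 in place of 0 in GMPs, 5 in place of 3 from LSK to GMP in WT, 6 in place of 3 in UREΔ and 3 in place of 1 for the interaction; the interaction of *Ncf1*, never called, turned to 0.039. In GMPs, DESeq2, no filter on low counts and the fit over 16 libraries each called 1, *Hvcn1*, and replicates 1 and 4 alone called 2, *Hvcn1* and *Cybb* (-2.52). Over all comparisons, DESeq2 gained 3 member calls, no filter 2 and RLE size factors 1. The fit over 16 libraries gained 2 and lost 1. At an unadjusted p under 0.05, *Hvcn1* and *Ncf4* passed in GMPs. Replicates 2 and 3 alone called 0 for the interaction, where *Ncf4* was 2.85 (adjusted p = 0.728). Leaving out 1 library gave 1 call in LSKs each time, 0 to 1 in GMPs, 3 to 4 in WT and 2 to 4 in UREΔ from LSK to GMP, and 1 for the interaction. Without TMM, 2 in place of 3 were called from LSK to GMP in each genotype. The GMP call was *Cybb* without replicate 2 and *Hvcn1* (1.89, adjusted p = 0.0246) without replicate 3 of the UREΔ GMPs.

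Values that turned sign were not called before or after. With replicates 1 and 4 alone, *Cyba* in GMPs was 0.045 and *Ncf1* -0.090. Replicates 2 and 3 alone gave interactions of 0.38 for *Cybb* and 0.17 for *Ncf1*. Without TMM, *Rac2* from LSK to GMP in WT was -0.29, and with *Daglb* summed, *Rac1* in UREΔ was 0.14. Without single libraries, log2 values ran from -0.86 to 0.35 for *Cybb* and -0.19 to 0.30 for *Ncf1* in LSKs, from -0.28 to 0.10 for *Cyba*, -0.19 to 0.30 for *Ncf1* and -0.051 to 0.31 for *Rac2* in GMPs, from -0.11 to 0.24 for *Rac2* from LSK to GMP in WT, and, for the interaction, from -2.09 to 0.30 for *Cybb* and -0.29 to 0.26 for *Ncf1*. The causes were not tested.

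The fall of *Ncf4* in UREΔ LSKs kept its direction and call in every alternative run. In LSKs *Cybb* rested on 40 to 260 counts and ran from 1.61 to 8.73 CPM between the WT libraries. With that spread and 4 libraries a group, a difference of its SE, 0.58, was not detectable.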

Other observations

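Markers of other cells in the sorted populations are given as summed CPM over the 4 libraries of a group. Stem and multipotent progenitor markers lay at 1672 to 3832 in WT LSKs, 1683 to 2873 in UREΔ LSKs, 412 to 1517 in WT GMPs and 644 to 1209.5 in UREΔ GMPs. Of these 8, *Flt3* was called lower in UREΔ in both cell types, and with the block *Hoxa9* (-0.94) and *Procr* (-1.97) joined it in GMPs. Markers of dendritic cells, which also express *Cybb*, lay at 969.6 to 1591 in WT and 326 to 449.9 in UREΔ LSKs, and at 319 to 431 in WT and 35.9 to 59.9 in UREΔ GMPs, where 4 of 4 tested were called lower by edgeR. In the LSKs 2 of 4 were called lower, and 3 with the replicate block. This list also holds the progenitor gene *Flt3*, which alone was at 1209, 672, 359 and 773 CPM in WT LSKs and 356, 157, 184 and 271 CPM in UREΔ LSKs. The rest of the sum was almost all *Cd74*, *H2-Ab1* and *H2-Aa*, as *Siglech* reached at most 1.28 CPM and *Cd209a* at most 1.33 CPM in any library. Eosinophil markers lay at 5.58 to 9.84 in WT and 2.11 to 23.2 in UREΔ LSKs, and at 596 to 1249 in WT GMPs and 78.5 to 298 in UREΔ GMPs, with 4 of 6 called lower, and 5 with the block. In the LSKs 0 of 3 tested were called, and with the block 1 was, *Siglecf* (-2.43, adjusted p = 0.0296). B cell markers were at 58.6 to 85.1 in WT and 25.0 to 36.9 in UREΔ LSKs, with no overlap and *Cd79b* called lower, 1 of 4 tested (-1.19, adjusted p = 0.00850), and at 63.3 to 91.1 in WT and 11.9 to 27.3 in UREΔ GMPs. Of 3 B cell markers tested in GMPs, *Cd79b* was called lower (-2.31, adjusted p = 0.00349), while *Vpreb1* (1.01, adjusted p = 0.0911) and *Igll1* (0.43, adjusted p = 0.690) were not called. The sum over T and NK cell markers was 128 to 295 in WT and 214 to 355 in UREΔ LSKs, where *Cd4* was called lower, 1 of 3 tested (-3.04, adjusted p = 0.00677), and 566 to 978 in WT and 1354 to 2228 in UREΔ GMPs. Of 3 tested in GMPs, *Nkg7* was called higher (1.07, adjusted p = 0.0169), *Cd4* (-1.06) and *Klrb1c* (0.37) were not called, and *Cd3e*, *Cd3d* and *Cd8a* were too low to be tested. Mast cell and basophil markers lay at 69.3 to 155 in WT and 129.9 to 253 in UREΔ LSKs, with 2 of 5 called higher, and at 713 to 1267 in WT and 863 to 2378 in UREΔ GMPs, with 1 of 6 higher and 2 lower. Erythroid markers lay at 41.6 to 118 in WT and 16.9 to 67.7 in UREΔ LSKs, with 1 of 6 called lower and 2 with the block, and at 139.8 to 425 and 52.4 to 463 in the GMPs. Megakaryocyte markers lay at 367 to 677 in WT and 546 to 886 in UREΔ LSKs, with 1 of 4 called higher, and at 142 to 273 and 95.8 to 352 in the GMPs. The part of these cells in the oxidase levels was not tested.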
